A study of Homo sapiens with 3 samples.

Results

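The nuclear-encoded subunits of the respiratory chain were followed across the 3 single-cell libraries of the series. They were chosen by gene name alone: symbols of the NDUFA, NDUFB, NDUFC, NDUFS and NDUFV families (complex I), SDHA to SDHD (complex II), UQCR and CYC1 (complex III), COX4 to COX8 (complex IV) and ATP5F1, ATP5M and ATP5P (complex V). The names matched 170 of the 33423 gene rows, of which 84 were pseudogene names and were left out. Of the 86 rows taken, 4 were antisense, divergent or read-through transcripts (NDUFA6-DT, NDUFB2-AS1, NDUFC2-KCTD14 and NDUFV2-AS1). These 4 stayed at or below 5.70 CPM in each library (CPM, the UMIs of a gene scaled to an equal total for every library), are uncertain because they overlap or adjoin a subunit gene, and were not counted as subunits. The remaining 82 genes comprised 38 of complex I, 4 of complex II, 10 of complex III, 12 of complex IV and 18 of complex V.

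Cells of 2 prostate cancer lines, both labelled as sensitive to the prostate cancer drug enzalutamide (ENZ), were profiled by Drop-seq, where each captured mRNA receives a unique molecular identifier (UMI) near its 3′ end. The LNCaP line was exposed to 10 µM ENZ for 168 h (LNCaP-ENZ168) and the VCaP line to the same dose for 48 h (VCaP-ENZ48), while the library called VCaP came from the same line given only the vehicle (0.1% DMSO) for 48 h. With 1 library in every group there was no replicate check and no statistical test, and intervals are exact 95% intervals that cover counting error alone. LNCaP was grown in RPMI 1640 with added pyruvate and glucose and VCaP in DMEM. LNCaP without ENZ was not analysed here.

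The respiratory chain passes electrons from NADH through complex I, and from succinate through complex II, to complex III, cytochrome c and finally oxygen at complex IV. Complexes I, III and IV pump protons across the inner mitochondrial membrane, and complex V, the ATP synthase, uses their return to make ATP. Complexes I, III, IV and V join subunits made from nuclear genes to a smaller set made inside the mitochondrion, whereas complex II is wholly nuclear-encoded and also acts in the tricarboxylic acid (TCA) cycle.

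After filtering, between 944 and 997 of the 1000 barcodes of each library were kept, with 6313283 UMIs in LNCaP-ENZ168, 19515202 in VCaP and 14301287 in VCaP-ENZ48. Median depth ran from 5389 UMIs per cell in LNCaP-ENZ168 to 17817 in VCaP. No barcode was shared between libraries. The libraries stood apart in their barcodes, of which 78.3% ended in a base and not N in LNCaP-ENZ168, against 13.8% in VCaP and 13.4% in VCaP-ENZ48, and its part in the comparison of the lines was not tested beyond a repeat with such barcodes alone, which gave complexes III, IV and V medians of -1.23, -1.14 and -1.20. The VCaP marker ERG had 2052 UMIs in VCaP, 816 in VCaP-ENZ48 and 0 in LNCaP-ENZ168, whose limit for a count of 0 was 0.475 CPM. The luminal prostate markers HOXB13, KRT8, KRT18 and EPCAM were found in each library, at 98.4 to 460.5 CPM. Of 5 markers of other cell types, TP63 and CD3E had no row, and PTPRC, COL1A1 and PECAM1 summed to between 0.564 and 1.58 CPM.

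Promoter windows were available for 67 of the 82 subunit genes (RefSeq, GRCh38.p14, 250 bases before to 50 after the start site). They were searched on both strands for the letters CGCANGCG, which nuclear respiratory factor 1 (NRF1) binds, CCGGAAGT (ETS family, which includes GABPA), AAGATGGC (YY1) and TCAAGGTCA (estrogen-related receptors). The 120 bases before the start site are shown for 7 subunits from the extremes of the comparisons below, all with a match. Matches on either strand are in capitals. Other subunits at the extremes, such as COX7B, ATP5MC1 and NDUFB11, had no match in this stretch. ATP5PF carried both the NRF1 and the YY1 letters in this stretch, the capitals in COX8A are the ETS letters on the other strand, and all other capitals are NRF1 letters.
NDUFA6, chr22:42090773-42090892, minus strand: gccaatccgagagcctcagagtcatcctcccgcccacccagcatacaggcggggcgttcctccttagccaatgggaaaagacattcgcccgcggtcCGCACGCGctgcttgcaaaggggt
NDUFS7, chr19:1383787-1383906, plus strand: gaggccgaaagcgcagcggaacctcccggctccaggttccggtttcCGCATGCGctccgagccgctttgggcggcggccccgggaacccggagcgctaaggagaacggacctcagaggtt
SDHA, chr5:218200-218319, plus strand: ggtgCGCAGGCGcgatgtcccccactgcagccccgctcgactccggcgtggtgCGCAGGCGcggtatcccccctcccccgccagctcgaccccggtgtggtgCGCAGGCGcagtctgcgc
COX8A, chr11:63974500-63974619, plus strand: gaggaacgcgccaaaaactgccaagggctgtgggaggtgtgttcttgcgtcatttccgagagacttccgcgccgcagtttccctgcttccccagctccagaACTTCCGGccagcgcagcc
ATP5ME, chr4:674277-674396, minus strand: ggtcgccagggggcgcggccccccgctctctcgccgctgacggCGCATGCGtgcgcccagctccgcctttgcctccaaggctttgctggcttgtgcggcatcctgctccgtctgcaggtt
ATP5PF, chr21:25735055-25735174, minus strand: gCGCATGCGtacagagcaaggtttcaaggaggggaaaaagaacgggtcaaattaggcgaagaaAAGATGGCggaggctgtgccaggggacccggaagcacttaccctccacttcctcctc
ATP5MC2, chr12:53676084-53676203, minus strand: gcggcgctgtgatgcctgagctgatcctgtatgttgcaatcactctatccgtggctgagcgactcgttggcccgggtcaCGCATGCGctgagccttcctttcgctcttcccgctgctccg

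The NRF1 letters occurred in 23 of the 67 subunit promoters (34.3%), against 10.6% of all 27305 promoters and 22.2% of the 6654 promoters of genes at 10 CPM or more. By complex, 9 of 33 promoters of complex I held them, 2 of 3 of complex II, 4 of 7 of complex III, 1 of 11 of complex IV and 7 of 13 of complex V. The YY1 letters were found in 11 subunit promoters (16.4%, against 3.03% of all and 6.87% of expressed genes), the ETS letters in 10 (14.9%, against 4.44% and 10.8%) and the letters of the estrogen-related receptors in 1 (1.49%, against 0.359% and 0.165%). None of the 4 letter strings contains another, and 34 of the 67 promoters (50.7%) held at least 1 of the 4. In SDHA the NRF1 letters recurred 4 times, starting 165, 116, 67 and 18 bases before the start site. A match is a description of letters and does not show that a factor bound there.

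The subunits took up more of the mRNA in VCaP than in either ENZ-exposed library. Because 1 tag is counted per captured mRNA, levels in CPM were not divided by transcript length. All 82 genes summed to 40200 CPM in VCaP, 26410 CPM in VCaP-ENZ48 and 22860 CPM in LNCaP-ENZ168. For the 78 subunits whose mean reached 10 CPM, the level was highest in VCaP for 53, in LNCaP-ENZ168 for 22 and in VCaP-ENZ48 for 3. It was lowest in LNCaP-ENZ168 for 42, in VCaP-ENZ48 for 31 and in VCaP for 5. The library total also held different shares of cytosolic ribosomal protein mRNA (20.4% in VCaP, 24.8% in VCaP-ENZ48 and 10.3% in LNCaP-ENZ168). Ratios below are therefore given relative to the median of all genes.

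**Figure D1:**
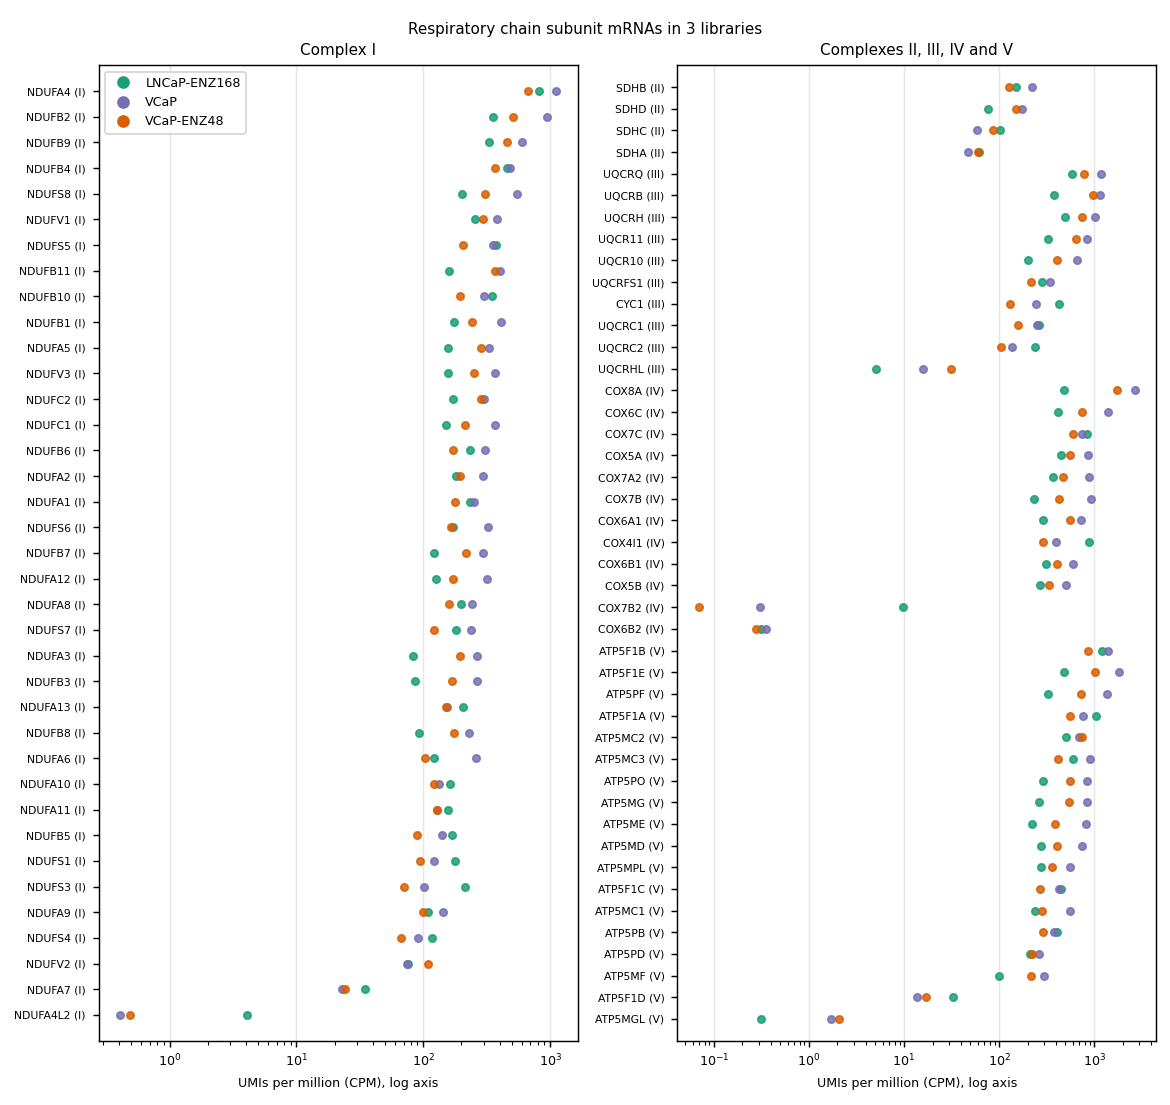
Level of each subunit mRNA (CPM, log axis) in LNCaP-ENZ168 (green), VCaP (purple) and VCaP-ENZ48 (orange), by complex, ordered by mean level within each complex, with 1 subunit not drawn. COX8A is the highest in VCaP at 2665 CPM, and VCaP points lie furthest right for most subunits.

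By complex, the sums in VCaP, VCaP-ENZ48 and LNCaP-ENZ168 were 11450, 7767 and 7766 CPM for complex I, and 500.6, 428 and 391 CPM for complex II. Complex III summed to 5855, 4201 and 3201 CPM and complex IV to 9696, 6131 and 4558 CPM, in the same order. Complex V summed to 12700, 7882 and 6939 CPM. Complex II was thus the smallest share in each library, and the gap between the ENZ-exposed libraries was near 0 for complex I.

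The comparison of VCaP-ENZ48 with VCaP asks how expression differs after a short exposure to ENZ. Most respiratory chain subunits were lower in VCaP-ENZ48 than the run of genes. Ratios are log2 ratios of CPM + 1 minus the median of the 7729 genes tested, which was -0.066. The median ratio of the 78 subunits tested was -0.50 (-0.54 to -0.46), and 69 of the 78 lay below the median of all genes. For 67 of them the counting interval lay wholly below 0 and for 6 wholly above. At a 1.5-fold difference, 27 of 78 subunits were lower, against 15% of all genes tested, and 3 were higher, against 17.5%. These counts depended on the expression minimum. With minimums of 1, 50 and 100 CPM, each read against the median of the genes it keeps, 51, 17 and 14 subunits were lower, against 17.7%, 13.5% and 12.3% of all genes, and 1, 2 and 0 were higher, against 20.7%, 15.6% and 16%. The other 4 subunit genes (ATP5MGL, COX6B2, COX7B2 and NDUFA4L2) had a mean under 10 CPM and were not tested in either comparison. Intervals leave out the + 1.

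**Figure D2:**
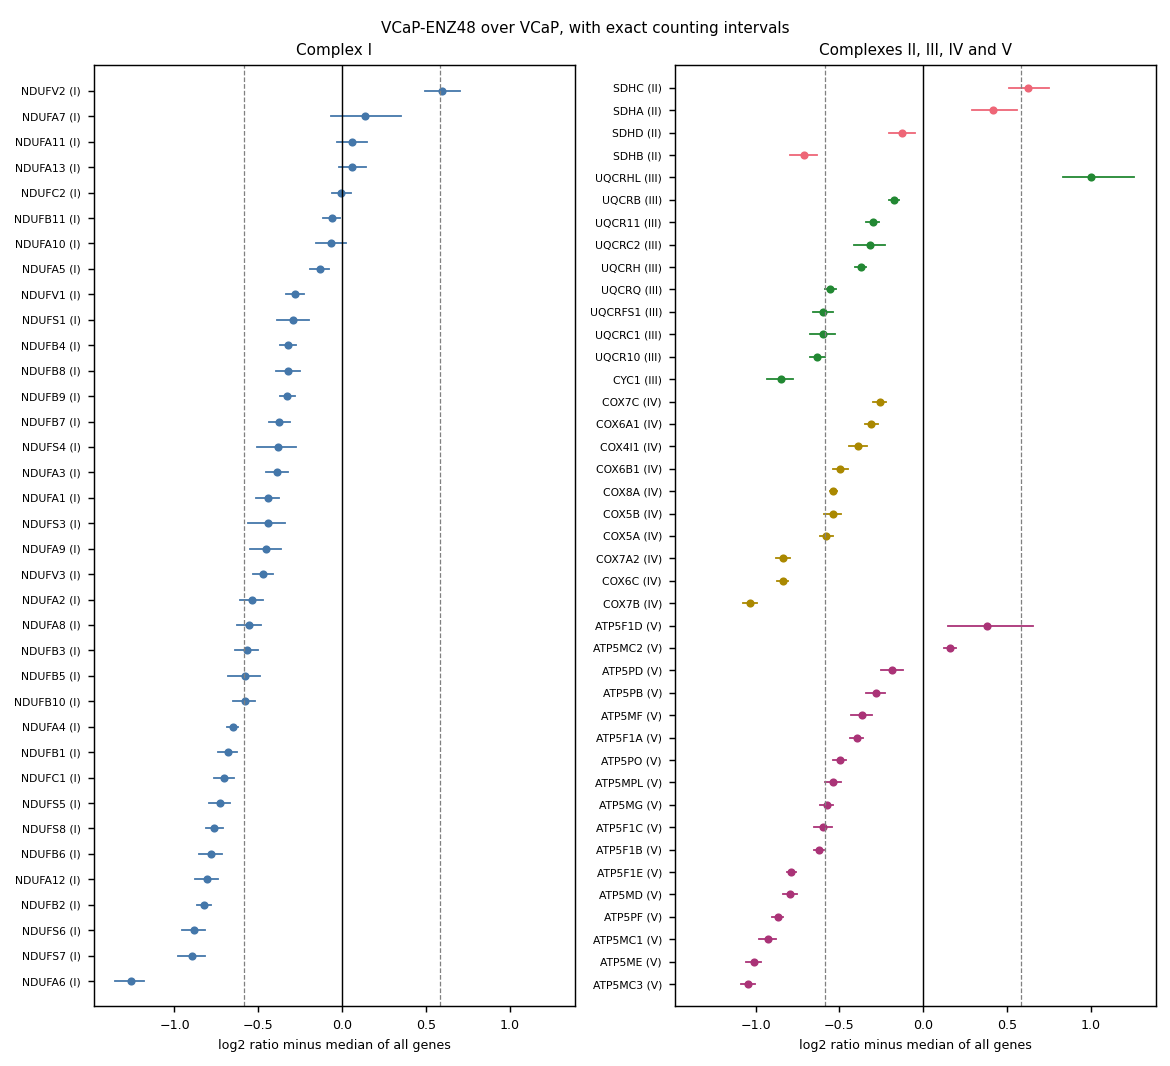
Log2 ratio of VCaP-ENZ48 over VCaP minus the median of all genes for the 78 subunits, with exact 95% counting intervals, colored by complex. Dashed lines mark 1.5-fold, 1 subunit is not drawn, and most points lie left of 0, with NDUFA6 lowest at -1.26 and UQCRHL highest at 1.00.

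In complex I, 33 of 37 subunits tested lay below the median of all genes, 11 by at least 1.5-fold, and the median was -0.44 (-0.56 to -0.34). NDUFA6, an accessory subunit of the LYR-motif family, stood at 263 CPM in VCaP, 104 CPM in VCaP-ENZ48 and 122 CPM in LNCaP-ENZ168. Its VCaP pair ratio of -1.26 (-1.35 to -1.18) was the lowest of all subunits over all cells. In the cells with the fewest cell cycle UMIs it was -0.94, and ATP5MC3 (-1.02), COX7B (-1.02) and ATP5ME (-0.97) lay lower. NDUFS6, an accessory subunit with a zinc site, was at 322 CPM in VCaP, 166 CPM in VCaP-ENZ48 and 171 CPM in LNCaP-ENZ168, a VCaP pair ratio of -0.88 (-0.96 to -0.82). NDUFB2, a small membrane-arm subunit, had 943 CPM in VCaP, 509 CPM in VCaP-ENZ48 and 356 CPM in LNCaP-ENZ168, with a VCaP pair ratio of -0.82.

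The 7 nuclear core subunits, which carry the electron path from NADH to ubiquinone, did not share one ratio between VCaP-ENZ48 and VCaP. NDUFS7 and NDUFS8, which hold the iron-sulfur clusters nearest ubiquinone, were both lower, at 239 against 122 CPM (-0.89) and 548 against 308 CPM (-0.76). NDUFS3, NDUFS1 and NDUFV1 lay closer to the other genes, at -0.44, -0.29 and -0.28. NDUFV2, the small subunit of the NADH-oxidizing module, was at 75.1 CPM in VCaP, 109 CPM in VCaP-ENZ48 and 75.4 CPM in LNCaP-ENZ168. Its ratio of 0.60 (0.50 to 0.70) was the only one of complex I past 1.5-fold higher, and it lay close to that limit and below it in the cells with the fewest cell cycle UMIs (0.52). NDUFV2 is uncertain, since its pseudogene NDUFV2P1 held 30.4% as many UMIs over the 3 libraries and was at 17.3 CPM in VCaP and 37.1 CPM in VCaP-ENZ48. NDUFA7 (23.98 against 22.8 CPM, ratio 0.14), NDUFA11 (0.06) and NDUFA13 (0.06) were the other members of complex I above the median of all genes.

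NDUFA4 is named for complex I but is counted with complex IV by structure. It had 1114 CPM in VCaP, 676 CPM in VCaP-ENZ48 and 821 CPM in LNCaP-ENZ168, and was the most abundant subunit by the complex I names. Its VCaP pair ratio was -0.65 (-0.69 to -0.62), against medians of -0.54 for complex IV and -0.44 for complex I. For LNCaP-ENZ168 over VCaP-ENZ48 its ratio relative to the median of all genes was -0.37, against medians of -1.03 and -0.52.

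Complex II divided. SDHC, a membrane anchor, was at 58.9 CPM in VCaP, 87.1 CPM in VCaP-ENZ48 and 102 CPM in LNCaP-ENZ168, with a VCaP pair ratio of 0.62 (0.51 to 0.75) that was 0.41, under the limit, in the cells with the fewest cell cycle UMIs. SDHA, the flavoprotein that oxidizes succinate, was at 47.4 CPM in VCaP, 60.8 CPM in VCaP-ENZ48 and 61.8 CPM in LNCaP-ENZ168, with a ratio of 0.42 (0.29 to 0.56). SDHB, the iron-sulfur subunit, was at 220.5 CPM in VCaP, 128 CPM in VCaP-ENZ48 and 150.3 CPM in LNCaP-ENZ168. Its ratio of -0.71 (-0.80 to -0.64) was opposite in sign to those of SDHA and SDHC. SDHD, the second anchor, lay between at -0.12 (-0.20 to -0.05). The median of the 4 genes, 0.15, therefore sums up no common direction, and its sign depended on which genes were tested. SDHA counts could be split with the copies SDHAP1 and SDHAP3, which were at 2.05 and 2.10 CPM in VCaP and at 3.29 and 6.36 CPM in VCaP-ENZ48.

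In complex III, 9 of 10 subunits lay below the median of all genes and 4 were lower by at least 1.5-fold, with a median of -0.46. CYC1, the cytochrome c1 that hands electrons to cytochrome c, was at 246 CPM in VCaP and 130.3 CPM in VCaP-ENZ48, a ratio of -0.85 (-0.93 to -0.77). UQCR10 (656 against 404 CPM, -0.63), the core subunit UQCRC1 (-0.60) and the Rieske iron-sulfur protein UQCRFS1 (-0.60) followed. UQCRB, which binds near the ubiquinone site, was the closest to the other genes at -0.17 (-0.20 to -0.14). UQCRHL, a near-identical copy of the hinge protein gene UQCRH, was at 15.8 CPM in VCaP and 31.1 CPM in VCaP-ENZ48, a ratio of 1.00 (0.83 to 1.26), while UQCRH itself was at 1016 and 749 CPM (-0.37). Reads of the pair can be exchanged in counting, so UQCRHL is uncertain.

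All 10 complex IV subunits tested lay below the median of all genes, 3 by at least 1.5-fold, with a median of -0.54 (-0.59 to -0.49). COX7B was at 922 CPM in VCaP, 430 CPM in VCaP-ENZ48 and 235 CPM in LNCaP-ENZ168, with a VCaP pair ratio of -1.03 (-1.08 to -0.99). COX6C and COX7A2, further small nuclear subunits, both had a ratio of -0.84. COX8A, the most abundant of all subunits in both VCaP libraries, was at 2665 CPM in VCaP and 1755 CPM in VCaP-ENZ48, a ratio of -0.54 (-0.56 to -0.51). COX7C was closest to 0 at -0.26.

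In complex V, 15 of 17 subunits tested lay below the median of all genes and 8 were lower by at least 1.5-fold, with a median of -0.58 (-0.62 to -0.54). The ATP5F1 genes, the ATP5P genes of the peripheral stalk and the ATP5M genes of the membrane part had medians of -0.60 (5 genes), -0.39 (4 genes) and -0.68 (8 genes). The 3 genes for subunit c, which forms the rotor ring and is the same mature protein from each gene, differed. ATP5MC3 was at 909 CPM in VCaP, 421 CPM in VCaP-ENZ48 and 593 CPM in LNCaP-ENZ168, a VCaP pair ratio of -1.04 (-1.09 to -1.002). ATP5MC1 was at 559 CPM in VCaP, 281 CPM in VCaP-ENZ48 and 238 CPM in LNCaP-ENZ168, a ratio of -0.93 (-0.98 to -0.88). ATP5MC2 was at 699 CPM in VCaP, 746 CPM in VCaP-ENZ48 and 505 CPM in LNCaP-ENZ168, and its ratio was 0.16 (0.12 to 0.20). ATP5MC2 thus lay above the other genes where ATP5MC1 and ATP5MC3 lay far below. In the cells with the fewest cell cycle UMIs ATP5MC2 was at 0.04, ATP5MC1 at -0.71 and ATP5MC3 at -1.02.

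Of the remaining complex V members, ATP5ME, subunit e of the membrane part, was at 826 CPM in VCaP and 391 CPM in VCaP-ENZ48 (-1.01, -1.06 to -0.97). ATP5PF, the stalk's coupling factor 6, was at 1377 and 721 CPM (-0.87) and ATP5F1E, the epsilon subunit, at 1825 and 1010 CPM (-0.79). The catalytic subunit beta, ATP5F1B, was at 1385 and 859 CPM (-0.62) and subunit alpha, ATP5F1A, at 761 and 551 CPM (-0.40). The delta subunit ATP5F1D, at only 13.7 and 17.3 CPM, had a ratio of 0.38 (0.15 to 0.66). That ratio was -0.04 in the cells with the fewest cell cycle UMIs.

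Subunits are abundant and mostly short mRNAs, so the same ratios were read against genes like them. Against the same median as before, the genes of at least 100 CPM had a median of -0.20 and 22.4% were lower by at least 1.5-fold, against a median of -0.54 and 27 of 70 for the subunits. The 519 genes with a canonical transcript under 800 bases had a median of 0.31 and 16% were lower, against -0.52 and 14 of 40 subunits. From 800 to 1500 bases all genes had a median of -0.04 with 16.4% lower and the subunits -0.56 with 6 of 16. At 1500 bases and over the medians were -0.03 for all genes, with 15.2% lower, and -0.43 for the subunits, with 7 of 22. The subunits lay below genes of similar level or length in each of these classes.

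Cell cycle transcripts differed between the VCaP libraries. The S and G2M phase genes summed to 15090 CPM in VCaP and 2862 CPM in VCaP-ENZ48. In the cells with the fewest S and G2M UMIs (at most 4 of 2000; 101 cells of VCaP and 567 of VCaP-ENZ48) the median ratio of the subunits was -0.48. Within each library the subunits summed to similar levels in the cells above and below that limit, with log2 differences of 0.01 in VCaP, 0.03 in VCaP-ENZ48 and -0.01 in LNCaP-ENZ168. The median difference between the VCaP libraries was thus about as large in cells with few cell cycle transcripts. These cells still differed in S and G2M genes, at 2587 CPM in VCaP and 1640 CPM in VCaP-ENZ48. The part of the cell cycle in the subunit ratios was not tested.

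The subunits made inside the mitochondrion lay mostly above the run of genes between the VCaP libraries. The 13 mitochondrially encoded subunits had a median ratio of 0.12, 10 of 13 lay above the median of all genes, and they summed to 52220 CPM in VCaP and 58950 CPM in VCaP-ENZ48. MT-CO1, the catalytic subunit of complex IV, was the highest at 7072 and 12550 CPM (0.89), and MT-ND4L was the lowest at -0.35. The other mitochondrial subunits of complex IV went both ways, with MT-CO2 at 6387 and 7719 CPM (0.34) and MT-CO3 at 11970 and 10540 CPM (-0.12). Nuclear copies of mitochondrial sequence could share reads with these genes, which was not tested.

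Other nuclear genes of the same machinery varied between lists, and their counts are to be read against the 15% of all genes that were lower and the 17.5% that were higher. The 77 mitochondrial ribosomal proteins tested had a median of -0.36, with 14 lower and 2 higher. The 51 assembly factors had a median of -0.17, with 12 lower and 0 higher, and the lowest were COX17 (-1.15), a copper chaperone of complex IV, and NDUFAF8 (-1.09). UQCC1 (0.46) and SDHAF2 (0.42), which attaches the flavin to SDHA, were the highest. The 10 partners that the names did not take had a median of -0.54, and 4 of them were lower. CYCS, the cytochrome c that carries electrons between complexes III and IV, was at 742 CPM in VCaP and 241 CPM in VCaP-ENZ48, a ratio of -1.55 (-1.61 to -1.50). The 12 TCA cycle enzymes tested had a median of -0.32, with FH (-0.83) and DLD (-0.73) lowest and OGDH (0.58) and SUCLG2 (0.25) highest.

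The comparison of LNCaP-ENZ168 with VCaP-ENZ48 sets both ENZ-exposed libraries side by side. Cell line, time, medium and preparation differ together here and cannot be told apart. It also shares the VCaP-ENZ48 library with the comparison above, so the 2 sets of ratios are given beside each other and not related. Most subunits were lower in LNCaP-ENZ168 than the run of genes. Over 8854 genes the median log2 ratio was 0.66, and relative to it the 78 subunits had a median of -0.92 (-1.005 to -0.83). Below the median of all genes lay 64 of 78 subunits. At 1.5-fold, 45 of 78 were lower, against 28.1% of all genes, and 4 were higher, against 26.8%.

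The medians were -0.52 for complex I (18 of 37 lower), -0.53 for complex II (2 of 4), -1.16 for complex III (6 of 10), -1.03 for complex IV (8 of 10) and -1.07 for complex V (11 of 17). Within complex I the 7 core subunits had a median of -0.09 and the 30 accessory ones tested -0.57. In complex V the ATP5F1 genes had a median of 0.08 but ran from -1.73 to 0.29. The ATP5P genes of the peripheral stalk had a median of -1.16 and the ATP5M genes of the membrane part of -1.23. Ratios thus differed widely within complexes. Before the median of all genes was subtracted, the medians were 0.13 for complex I, 0.12 for complex II, -0.50 for complex III, -0.38 for complex IV and -0.41 for complex V.

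The subunits past 1.5-fold higher in LNCaP-ENZ168 belonged to complexes I, III and IV. CYC1 was at 429 CPM in LNCaP-ENZ168, 246 CPM in VCaP and 130.3 CPM in VCaP-ENZ48, a ratio of 1.06 (0.98 to 1.15) over VCaP-ENZ48. NDUFS3, a core subunit of complex I, was at 212 CPM in LNCaP-ENZ168, 101 CPM in VCaP and 70.9 CPM in VCaP-ENZ48 (0.91, 0.81 to 1.05). COX4I1, the main regulatory subunit of complex IV, was at 885 CPM in LNCaP-ENZ168, 396 CPM in VCaP and 289 CPM in VCaP-ENZ48 (0.96, 0.90 to 1.02). For CYC1, NDUFS3 and COX4I1 alike LNCaP-ENZ168 held the highest level of the 3 libraries.

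At the other end, COX8A was at 487 CPM in LNCaP-ENZ168 against 1755 CPM in VCaP-ENZ48, a ratio of -2.50 (-2.56 to -2.45). UQCRB was at 376 against 977.5 CPM (-2.03), NDUFA3 at 83.0 against 194 CPM (-1.87) and NDUFB11 at 161 against 366.5 CPM (-1.84). UQCRHL, uncertain as above, was lowest at -3.06 on 32 UMIs in LNCaP-ENZ168. Complex IV thus held both one of the highest ratios, COX4I1, and the lowest after UQCRHL, COX8A.

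Transcript length moved with this comparison over all genes. Genes with a canonical transcript under 800 bases had a median of -1.48 and 70.6% of them were lower, whereas the 40 subunits of that length had a median of -1.12, with 29 lower. From 800 to 1500 bases all genes had a median of -0.11 with 32.7% lower, and the 16 subunits -0.43 with 7 lower. At 1500 bases and over all genes had a median of 0.07 with 23.4% lower, and the 22 subunits -0.34 with 9 lower. Among genes of at least 100 CPM 36.8% were lower, against 42 of 71 subunits. These classes include the subunits and the cytosolic ribosomal proteins. Without both, genes under 800 bases had a median of -1.43 with 67.7% lower, those of 800 to 1500 bases -0.06 with 31.3% and longer ones 0.08 with 23.2%. Over the subunits, Spearman's rho of ratio and canonical length was 0.26, and over all 8489 genes with a length it was 0.13. By canonical transcript, UQCRB (8459 bases) lay among the lowest and COX4I1 (763 bases) among the highest. Whether the canonical transcript is the one counted was not tested. The cytosolic ribosomal proteins, a set of short and abundant mRNAs, had a median of -2.02 with 76 of 82 lower. The part of transcript length and of ribosomal protein mRNA in the subunit ratios was not tested. The 13 mitochondrially encoded subunits were also lower in LNCaP-ENZ168, with a median of -1.33 and 12 of 13 past 1.5-fold.

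**Figure D3:**
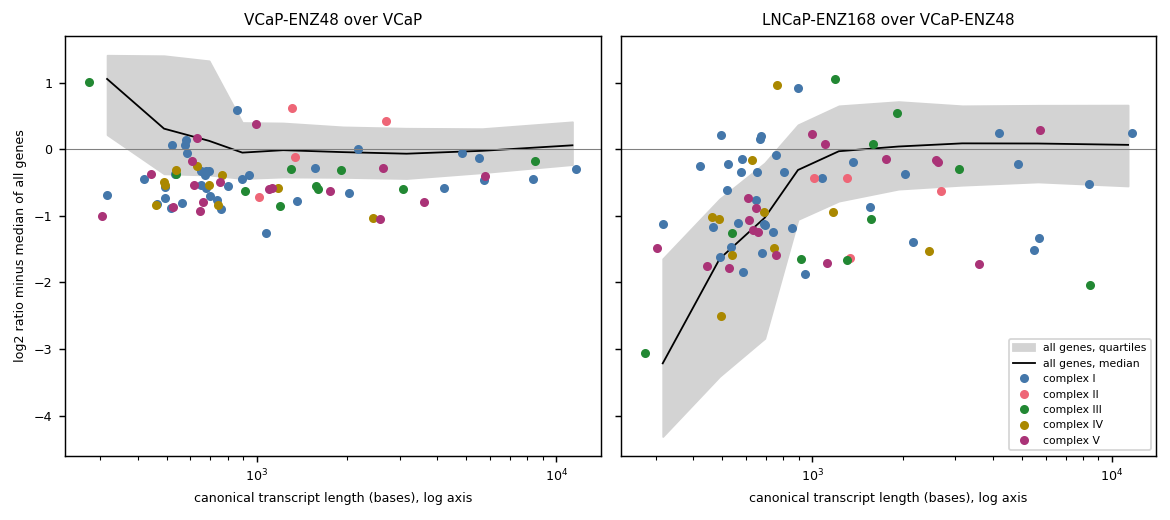
Log2 ratio minus the median of all genes against canonical transcript length (bases, log axis) for the subunits tested but 1, colored by complex, in both comparisons. The black line and grey band give the median and quartiles of all genes by length bin. For LNCaP-ENZ168 over VCaP-ENZ48, but not for the VCaP pair, the median falls to -3.21 in the shortest bin (250 to 400 bases).

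Isoform genes that are known for restricted tissues were mostly near the counting limit. COX7B2, an isoform of COX7B known from testis, had 62 UMIs in LNCaP-ENZ168 (9.82 CPM, in 5.19% of cells), 6 UMIs in VCaP (0.307 CPM, 0.602% of cells) and 1 UMI in VCaP-ENZ48 (0.106% of cells). The ratio of CPM between LNCaP-ENZ168 and VCaP-ENZ48 was 140.4, with a counting interval from 24.3 to 5636. NDUFA4L2, a relative of NDUFA4 known as a hypoxia-responsive gene, had 26, 8 and 7 UMIs in LNCaP-ENZ168, VCaP and VCaP-ENZ48, a CPM ratio of 8.41 (3.56 to 22.96) between the ENZ-exposed libraries. COX6B2 had 2, 7 and 4 UMIs. LNCaP-ENZ168 was the shallowest library, and the part of depth in these counts was not tested. COX4I2, COX6A2, COX7A1 and COX8C were not analysed here.

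To describe the subunits cell by cell, each cell was thinned to 2000 UMIs, which left out 1 cell of LNCaP-ENZ168, 0 of VCaP and 30 of VCaP-ENZ48. A VCaP cell then held a median of 80 subunit UMIs (quartiles 71 and 90), a VCaP-ENZ48 cell 50 (40 and 60) and a LNCaP-ENZ168 cell 41 (33 and 52). Only 2.18% of VCaP-ENZ48 cells (exact binomial interval 1.34 to 3.35%) and 1.80% of LNCaP-ENZ168 cells (1.05 to 2.87%) lay above the VCaP median, where 46.6% of VCaP cells did. The lower levels of VCaP-ENZ48 and of LNCaP-ENZ168 were thus spread over nearly all cells rather than held by a few. LNCaP-ENZ168 differs from VCaP in cell line, time and medium as well as in ENZ. The same shares for VCaP-ENZ48 were 5.13% for complex I, 16.9% for complex III, 6.98% for complex IV and 3.05% for complex V. For complex II the median was 1 UMI per cell in each library, which is too low to compare.

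**Figure D4:**
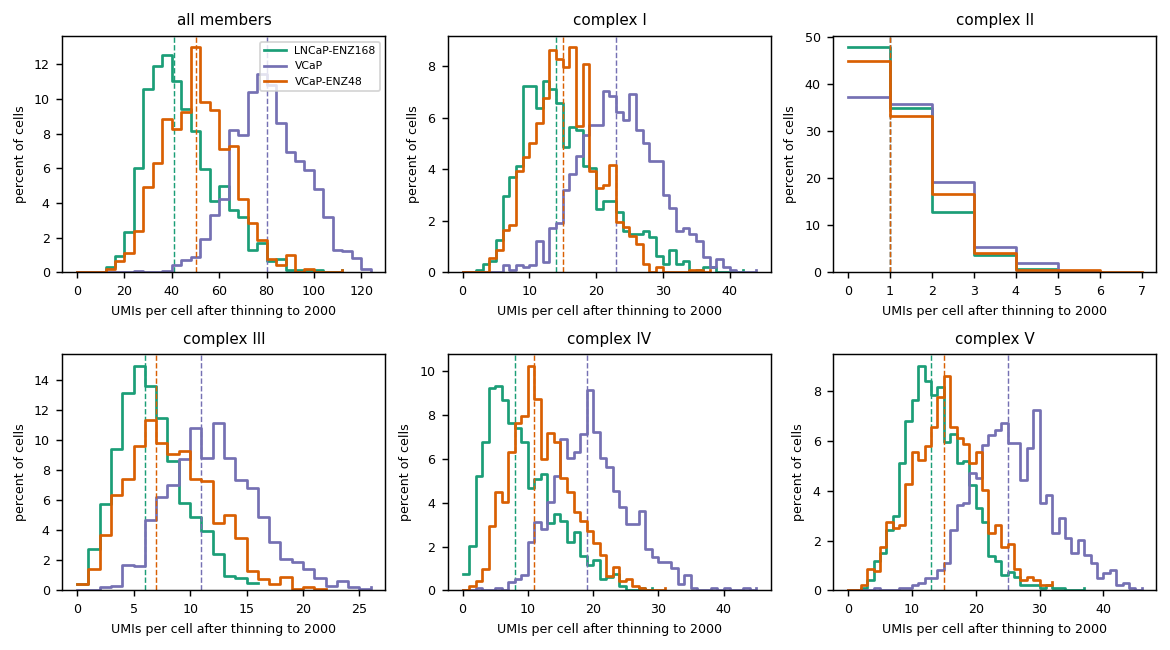
Share of cells (percent) by subunit UMIs per cell after thinning to 2000 UMIs, for all 82 subunits and each complex, with dashed medians. The VCaP distribution, with a median of 80 UMIs for all subunits, lies to the right of VCaP-ENZ48 (50) and LNCaP-ENZ168 (41) except for complex II.

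Cells differed from each other in subunit UMIs more in the ENZ-exposed libraries. The variance over the mean was 5.00 in LNCaP-ENZ168, 4.10 in VCaP-ENZ48 and 2.79 in VCaP, where pure sampling gives about 1. Across cells, complex I and complex IV UMIs had a Pearson r of 0.65 in LNCaP-ENZ168 (943 cells), 0.44 in VCaP-ENZ48 (917) and 0.30 in VCaP (997). Complex I and complex V had 0.42, 0.46 and 0.30 in that order. All subunits together had an r with the cytosolic ribosomal proteins of 0.76 in LNCaP-ENZ168, 0.57 in VCaP-ENZ48 and 0.17 in VCaP. With the mitochondrially encoded subunits r was 0.02, -0.25 and -0.12 in the same order. The points share a library and a fixed total of UMIs, so these values describe the cells and carry no test. Spearman's rho with the mitochondrially encoded subunits was 0.12, -0.05 and -0.06. With the mitochondrial percent of the cell r was -0.06, -0.31 and -0.16, and with its depth 0.15, 0.20 and -0.01. In the ENZ-exposed libraries the relation with ribosomal protein mRNA was the largest of these.

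Cells below the lower and above the upper quartile of ribosomal protein UMIs within each library were then set side by side, a split chosen after this relation was seen. In LNCaP-ENZ168 these were 237 poor and 236 rich cells, with median depths of 4715 and 5821.5 UMIs. The summed subunits were 0.90 higher on the log2 scale in the rich cells (0.88 to 0.92), where all genes had a median of -0.34. Complex IV was at 1.44, complex I at 1.03, complex III at 0.73, complex V at 0.57 and complex II at -0.27. In VCaP-ENZ48, where poor and rich cells differed in median depth (7690 and 13467 UMIs) and in median mitochondrial percent (8.79 and 6.61%) and all genes had a median of -0.45, the sum was 0.52 higher. There complex II was at -0.36 and the mitochondrially encoded subunits at -0.46. In VCaP the sum was 0.13 higher and the median of all genes -0.15. Complex II thus lay near the median of all genes in both ENZ-exposed libraries, and the other 4 complexes lay above it. In LNCaP-ENZ168 the mitochondrial percent was 7.79% in poor and 8.67% in rich cells. The part of depth and of mitochondrial percent in this split was not tested.

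Within LNCaP-ENZ168 this difference was larger for shorter subunits. Subunits under 800 bases had a median of 1.59, against 1.01 for all genes of that length but ribosomal proteins. From 800 to 1500 bases the medians were 0.83 and -0.01, and at 1500 bases and over -0.18 and -0.41. Highest among the subunits of at least 10 CPM were NDUFA11 (2.07), NDUFA2 (1.93) and ATP5MC1 (1.88), and lowest were UQCRC2 (-0.76), CYC1 (-0.64) and SDHC (-0.59). These 3 lowest went both ways in LNCaP-ENZ168 over VCaP-ENZ48, with CYC1 at 1.06, UQCRC2 at 0.54 and SDHC at -0.43. In VCaP-ENZ48 the same medians were 0.66, 0.40 and -0.20, against 0.73, -0.12 and -0.57 for all genes but ribosomal proteins. Short subunits there thus lay slightly below that set of short genes. In VCaP they were 0.12, 0.13 and 0.05, against 0.15, 0.02 and -0.21. Whether the split follows mRNA capture or the cells was not tested.

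**Figure D5:**
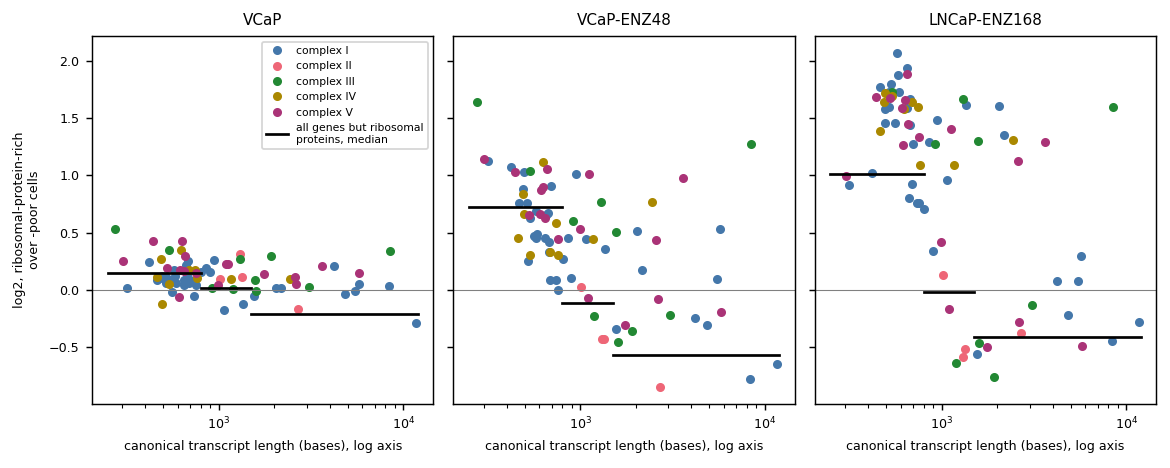
Log2 ratio of each subunit between the cells rich and poor in ribosomal protein UMIs (beyond the upper and lower quartile) within a library, against canonical transcript length (bases, log axis), for subunits of at least 10 CPM but 1. Black bars give the median of all genes but ribosomal proteins by length class, and subunits under 800 bases reach a median of 1.59 in LNCaP-ENZ168, 0.66 in VCaP-ENZ48 and 0.12 in VCaP.

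Returning to the promoters, ratios of the VCaP pair were alike with and without the NRF1 letters. The 23 subunits tested that carried them had a median of -0.55, with 20 below the median of all genes, and the 41 without had -0.47, with 38 below. For the ETS letters the medians were -0.34 (10 genes) and -0.54 (54), and for the YY1 letters -0.50 (11) and -0.54 (53). Among the windows printed above, NDUFA6 (-1.26), ATP5ME (-1.01) and NDUFS7 (-0.89) carried the NRF1 letters, and so did ATP5MC2 (0.16) and SDHA (0.42). COX7B (-1.03), ATP5MC1 (-0.93) and NDUFV2 (0.60) had no match in the same stretch.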

How the data were processed

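Drop-seq libraries of LNCaP-ENZ168, VCaP and VCaP-ENZ48 were compared. The authors ran the Drop-seq tools with Picard and STAR on GRCh38 and Gencode genes. Each deposited matrix gives UMI counts, not normalized, for 1000 barcodes, and genes it does not list were taken as 0. Whether counting used strand is not given in the sources used here.

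Cells with at least 300 genes, 500 UMIs and at most 25% mitochondrial UMIs were kept. Doublets were not identified or removed, and free RNA was not measured. UMIs were summed per library and scaled to CPM. Genes averaging 10 CPM or more in a pair were held against the 1.5-fold limit, with a pseudocount of 1. TMM scaling moved the median of all genes by -0.27 (VCaP pair) and -0.55 (lines), and totals without mitochondrial and ribosomal protein genes by 0.16 and -0.26. Ratios are relative to that median. Counting intervals were exact Poisson, conditional or Clopper-Pearson intervals. A count of 0 allows 3 counts. The interval of a median is that of the member nearest to it. Transcript lengths are those of the canonical transcript in a later Gencode version. Differences carry no p-value because each group had 1 library and cells are not replicates.

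Members and lists were chosen with earlier results of these data known. Named genes were members past 1.5-fold, at most 10 each way, the 2 highest and 2 lowest ratios and the extremes of level per complex, the SDH genes, core complex I subunits, isoform pairs and the 2 extremes each way of other lists. Further members named beside a complex (NDUFB2, NDUFA11, NDUFA13, NDUFA2, UQCRC1, UQCRFS1, and MT-CO2, MT-CO3, ETFA and GABPA outside them) were chosen after their values were seen, as were the length classes and the split by ribosomal protein UMIs. Alternatives covered the cell filter (with barcodes whose last letter was a base and not N as one choice), cell weighting, scaling, pseudocount, expression minimum, summary, complex assignment and thinning. Values of 1 subunit and 1 marker gene are not reported here, though the subunit enters the counts, sums and medians. The steps were tested on simulated data. Python 3.11.15, numpy 2.4.6, pandas 2.3.3, scipy 1.17.1, matplotlib 3.10.9, R 4.3.3 and edgeR 4.0.16 (TMM factors only) were used.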

Additional observations from a re-analysis of the deposited data

How the results depend on the processing

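No paired analysis was possible because only 1 library stands for each group, which also leaves no replicate to take out. Depth limits genes under about 10 CPM, and values of complex II per cell. Of the counts past 1.5-fold over all alternatives 51 stayed within 1.5 times and 9 did not. Of the medians 140 moved by less than their counting interval, 54 by more and 2 changed sign. Of the values of single genes 951 moved by less than their interval and 438 by more. The cause of these shifts was not tested, except that another expression minimum also changes the median of all genes that ratios are taken from. The minimum of 100 CPM was added after seeing the data.

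For VCaP-ENZ48 over VCaP, minimums of 1, 50 and 100 CPM gave medians of -0.73, -0.37 and -0.34 for all subunits, -0.68, -0.28 and -0.27 for complex I, -0.69, -0.39 and -0.35 for complex III, -0.77, -0.37 and -0.33 for complex IV and -0.79, -0.42 and -0.38 for complex V. For complex II they gave -0.085, 0.31 and -0.21, so its sign changed at 1 and 100 CPM. Under these minimums 51, 17 and 14 subunits were past 1.5-fold lower. Those higher numbered 1 with the 1 CPM minimum, equal weight of cells, totals without mitochondrial and ribosomal protein genes or a pseudocount of 5, and 0 with 100 CPM. Equal weight of cells gave -0.56 for all subunits, -0.53 for complex III, -0.61 for complex IV and -0.63 for complex V. Totals without those genes gave -0.54 for all, -0.50 for complex III and -0.62 for complex V. Barcodes ending in a base gave -0.43 for all, -0.44 for complex IV and -0.51 for complex V. The mean in place of the median gave -0.45 for all, -0.35 for complex III and -0.60 for complex IV, and the least cycling cells gave -0.46 for complex IV.

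For LNCaP-ENZ168 over VCaP-ENZ48, minimums of 1 and 100 CPM gave -0.73 and -0.69 for all subunits, -0.32 and -0.31 for complex I, -0.37 and -0.77 for complex II and -0.98 and -0.89 for complex V. Minimums of 1, 50 and 100 CPM gave -0.998, -0.955 and -0.79 for complex III and -0.86, -0.94 and -0.77 for complex IV. Barcodes ending in a base gave -1.23, -1.14 and -1.20 for complexes III, IV and V, a pseudocount of 5 gave -1.08, -0.95 and -0.99, and the mean gave -0.77, -0.86 and -0.72. The mean over all subunits was -0.62. With the 1 CPM minimum 7 subunits were past 1.5-fold higher. Thinned medians moved to 81 subunit UMIs per cell in VCaP with a second seed and to 53 in VCaP-ENZ48 with barcodes ending in a base.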

Other observations

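Regulators of mitochondrial biogenesis went both ways between the VCaP libraries. The 9 tested had a median ratio of -0.10, with 2 lower and 1 higher by at least 1.5-fold, against 15% and 17.5% of all genes. GABPB1, a partner of the ETS factor GABPA, was at 23.9 CPM in VCaP and 11.7 CPM in VCaP-ENZ48 (-0.91, -1.23 to -0.71), while GABPA itself was at 33.9 and 30.0 CPM (-0.10). TFAM, which packages mitochondrial DNA, was at 315 CPM in VCaP, 173 CPM in VCaP-ENZ48 and 181 CPM in LNCaP-ENZ168 (VCaP pair -0.80). POLG2 (0.75) and TWNK (0.37), both of the mitochondrial DNA replication machinery, were the highest. NRF1 mRNA stayed between 4.97 and 5.54 CPM in the 3 libraries and PPARGC1A had 1, 1 and 2 UMIs, both under the minimum. Among the partners, ETFB, a subunit of the electron transfer flavoprotein, was at 193 CPM in VCaP and 304 CPM in VCaP-ENZ48 (0.72), whereas its partner subunit ETFA was at 390.3 and 254 CPM (-0.55).

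Between the ENZ-exposed libraries these lists were mixed. The 51 assembly factors had a median of -0.28, with 18 lower and 11 higher in LNCaP-ENZ168, against 28.1% and 26.8% of all genes. NDUFAF4 (1.61) and TIMMDC1 (1.60), both assembly factors of complex I, were highest, and PET100 (-1.94) and COX16 (-1.90), both of complex IV, lowest. The TCA cycle enzymes had a median of -0.03, with FH (fumarase) at 209 CPM in LNCaP-ENZ168 and 51.8 CPM in VCaP-ENZ48 (1.34) and IDH3A at -0.66. The 77 mitochondrial ribosomal proteins had a median of -0.31 and the 10 partners 0.00, with ETFDH highest at 1.28.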
